A study of Mus musculus with 12 samples.

Results

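Hdac6 and Atat1, which encode the enzymes that take acetyl groups off alpha-tubulin and put them on, and the tubulin genes Tuba1a, Tuba1b, Tuba1c, Tubb5, Tubb6, Tubb2a, Tubb2b and Tubb3 were followed in mouse embryonic fibroblasts with and without Sirt2. They were chosen by name, as 10 genes tied to the alpha-tubulin acetylation on which the Sirt2 and Hdac6 enzymes act, and every probe annotated to them was taken. The array held 17 such probes for 9 of the 10 genes, out of 45281 probes and 19057 gene symbols; Tuba1c was not analysed here. Tests were run on probes that all 3 arrays of some group detected (detection p-value below 0.05), which left 13 probes of 8 genes, out of 17837 tested probes and 12128 tested genes. In RefSeq's GRCm38.p6 table, Hdac6 lies on chromosome X, Atat1 and Tubb5 on 17, Tuba1a, Tuba1b and Tuba1c on 15, Tubb2a and Tubb2b on 13, Tubb6 on 18 and Tubb3 on 8. A gene stands here for the brightest tested probe of a symbol, or for a tested probe with no symbol.

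RNA came from 4 groups of 3 samples, each on its own single-colour Illumina bead array: Sirt2-/- fibroblasts given mouse interferon beta (IFNβ) at 2500 IU/ml for 4 h, untreated Sirt2-/- fibroblasts, Sirt2+/+ fibroblasts given the same IFNβ, and untreated Sirt2+/+ fibroblasts. Sirt2-/- is called knockout and Sirt2+/+ wild type below. Nothing in the labels tells if the 3 samples per group come from separate embryos, lines or cultures, so p-values measure only the spread between these samples, which may be technical. Genotype and any other difference between the embryos or lines of the 2 genotypes cannot be told apart. Values below are normalized log2 intensities, so 1 unit is a 2-fold difference. Levels of different probes are not compared, since brightness also depends on the probe.

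Microtubules are hollow polymers of alpha- and beta-tubulin pairs. In the lumen, one conserved lysine of alpha-tubulin is acetylated by the Atat1 enzyme and deacetylated by Hdac6 and by Sirt2, mostly on long-lived microtubules. The arrays measured transcripts only, and neither tubulin protein nor its acetylation was measured. Tubulin messages are also known to be degraded when free tubulin pairs accumulate, so their levels can follow the polymer state as well as transcription.

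The labels were checked first on Sirt2. Its probe read 5.86, 6.37 and 6.15 in treated knockout arrays and 6.04, 6.66 and 6.61 in untreated knockout arrays, against 9.23, 8.76 and 8.97 in treated wild-type arrays and 8.72, 8.89 and 8.94 in untreated wild-type arrays. The knockout lay below the wild type by a log2 difference of −2.41 ± 0.18 untreated (SE, n = 3 per group, limma adjusted p = 1.92e-07) and −2.86 ± 0.18 under IFNβ (adjusted p = 4.91e-08). Isg15, a ubiquitin-like protein that is a standard IFNβ target, read 13.45, 13.36 and 13.33 in treated knockout arrays, against 8.04, 10.77 and 11.42 in untreated knockout arrays. It read 13.22, 13.36 and 13.17 in treated wild-type arrays, against 5.82, 6.22 and 6.19 in untreated wild-type arrays. Untreated knockout arrays 2 and 3 thus stood apart from array 1, which itself read above the untreated wild type. They also differed from array 1 in transcripts that were higher in the wild type. X-linked Xist read 6.85 and 6.07, against 4.27 in array 1, and the epithelial marker Krt18 5.69 and 5.77, against 4.41. The fibroblast markers Col3a1 (6.58 and 6.70, against 4.70) and Thy1 (11.15 and 10.43, against 9.38) did likewise, while Vim (12.60 and 12.80, against 12.85) did not. For the main calls and group counts that rest on arrays 2 and 3, the value without them is given too. Treated wild-type array 2 also stood apart, with the Y-linked gene Eif2s3y at 6.78 against 4.32 to 4.65 on the other wild-type arrays. Treated knockout array 2 read above treated knockout arrays 1 and 3 in Xist (6.33, against 4.36 and 5.05) and Col3a1 (6.05, against 4.70 and 5.22). It did not in Thy1 (9.84, against 10.15 and 10.12).

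The promoters below are shown because IFNβ is the treatment and because Hdac6, Tuba1a and Tubb5 passed a test in 1 of the comparisons. Isg15 is the comparison gene. Each is the 250 bases upstream of an annotated transcript start, 5′ to 3′ on the coding strand, from RefSeq on build GRCm38.p6. For Hdac6 that start lies inside the span of the gene (7930116 to 7948047), so part of its window, with both CCAAT boxes, is within the gene. Of the 10 genes, 8 had an entry. Both strands were searched for GAAANNGAA, the textbook core of the interferon-stimulated response element without its last letter, the STAT-dimer site TTCNNNGAA and the CCAAT box CCAAT, and capitals mark every match. The first motif is in 7.13% of 32851 promoters of that length, the second in 7.02% and the third in 33.8%.
Isg15 (chr4:156200819-156201068, minus strand): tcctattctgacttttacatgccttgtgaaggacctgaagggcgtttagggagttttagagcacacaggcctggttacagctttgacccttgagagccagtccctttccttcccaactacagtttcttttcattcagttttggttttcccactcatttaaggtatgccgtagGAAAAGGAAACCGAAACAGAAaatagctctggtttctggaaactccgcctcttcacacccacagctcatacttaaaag
Hdac6 (chrX:7947890-7948139, minus strand): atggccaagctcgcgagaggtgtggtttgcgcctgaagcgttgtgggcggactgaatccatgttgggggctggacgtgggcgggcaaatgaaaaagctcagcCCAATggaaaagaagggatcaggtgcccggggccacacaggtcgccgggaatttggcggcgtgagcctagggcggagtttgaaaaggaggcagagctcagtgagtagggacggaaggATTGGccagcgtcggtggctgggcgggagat
Tuba1a (chr15:98953502-98953751, minus strand): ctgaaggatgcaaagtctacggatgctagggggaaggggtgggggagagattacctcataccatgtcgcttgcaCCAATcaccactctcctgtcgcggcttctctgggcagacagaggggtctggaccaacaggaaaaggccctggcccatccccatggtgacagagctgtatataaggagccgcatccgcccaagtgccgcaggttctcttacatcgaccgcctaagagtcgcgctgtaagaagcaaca
Tubb5 (chr17:35838302-35838551, minus strand): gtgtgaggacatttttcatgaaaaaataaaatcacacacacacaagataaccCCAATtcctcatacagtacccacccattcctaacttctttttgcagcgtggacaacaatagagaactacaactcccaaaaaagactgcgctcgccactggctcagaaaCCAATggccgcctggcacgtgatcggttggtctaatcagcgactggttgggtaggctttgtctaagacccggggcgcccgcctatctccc

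The Isg15 promoter held 3 overlapping matches to GAAANNGAA. None of the 8 promoters searched (Hdac6, Atat1, Tuba1a, Tuba1b, Tuba1c, Tubb5, Tubb2a and Tubb3) matched that motif or TTCNNNGAA. Hdac6 and Tubb5 each held 2 CCAAT boxes, and Tuba1a, Tuba1c and Tubb3 each held 1. A match is a run of letters, not a measured binding site.

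Hdac6, a cytoplasmic deacetylase of alpha-tubulin, was higher in untreated knockout than in untreated wild-type fibroblasts. Its probe read 7.16, 7.08 and 6.90 in untreated knockout arrays, against 6.47, 6.59 and 6.65 in untreated wild-type arrays. All untreated knockout arrays lay above all untreated wild-type arrays. The log2 difference was 0.48 ± 0.10 (SE, n = 3 per group, 95% interval 0.26 to 0.70, 1.40-fold, limma adjusted p = 0.00155). Without untreated knockout arrays 2 and 3 the difference was 0.60 (adjusted p = 0.00865). With no background correction it was 0.26 (adjusted p = 0.00236).

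Under IFNβ the Hdac6 levels of the genotypes overlapped. The treated knockout arrays read 6.69, 6.77 and 6.83, against 6.76, 6.81 and 6.82 in treated wild-type arrays, a difference of −0.04 ± 0.10 (95% interval −0.26 to 0.18, limma adjusted p = 0.797). Within the knockout all treated arrays lay below all untreated ones, with a difference of −0.29 ± 0.10 that did not pass after adjustment (adjusted p = 0.136; −0.40, adjusted p = 0.213, without untreated arrays 2 and 3). Within the wild type the treated arrays were each higher than every untreated array, with 0.23 ± 0.10 (adjusted p = 0.181). Such opposite shifts without overlap, lower in the knockout and higher in the wild type, were seen in 19 of 12128 genes (0.157%), and the reverse pattern in 16. The direct test of the difference of the responses gave −0.52 ± 0.14 (95% interval −0.83 to −0.21) and did not pass (limma unadjusted p = 0.00325, adjusted p = 0.233; −0.63, adjusted p = 0.416, without untreated knockout arrays 2 and 3).

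Hdac6 lies on the X chromosome, and 3 of the 4 sex-linked transcripts measured moved with the genotype. Xist (its brightest probe), which coats the inactive X in female cells, had a mean of 5.25 in treated and 5.73 in untreated knockout arrays, against 9.52 in treated and 10.01 in untreated wild-type arrays. Eif2s3y, on the Y chromosome, had means of 9.56 and 9.56 in the treated and untreated knockout, against 5.25 and 4.41 in the treated and untreated wild type. Kdm5d, also Y-linked, had means of 5.91 and 6.33 in the treated and untreated knockout, and was detected on 0 wild-type arrays. Y-linked Uty, detected on 11 of 12 arrays, did not move with the genotype, with means of 5.19 and 5.15 in the treated and untreated knockout, against 5.24 and 5.20 in the treated and untreated wild type. The part of this sex-linked difference in the Hdac6 values was not tested. The named genes whose brightest probe tracked Hdac6 most closely over the 12 arrays were Slco4a1 (Pearson's r 0.914), Rcl1 (0.875) and Prr14l (0.864), out of 9722 named genes. These are descriptions over arrays that share the 4 groups.

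Atat1, the alpha-tubulin acetyltransferase, was near the detection limit. Its tested probe was detected on 8 of 12 arrays, on 2 of 3 treated knockout, 2 of 3 untreated knockout, 3 of 3 treated wild-type and 1 of 3 untreated wild-type arrays. It therefore entered the tests only through the treated wild type, the group where it was highest. It read 4.92, 5.20 and 5.09 in treated knockout arrays and 4.77, 5.12 and 5.13 in untreated knockout arrays, against 5.19, 5.35 and 5.32 in treated wild-type arrays and 4.81, 4.89 and 5.15 in untreated wild-type arrays. The treated wild-type arrays all lay above the untreated ones (0.34 ± 0.13, limma adjusted p = 0.119), while the knockout groups overlapped (0.06 ± 0.13, adjusted p = 0.847). The genotype differences were 0.06 untreated (adjusted p = 0.739) and −0.22 under IFNβ (adjusted p = 0.192), and neither passed. Without untreated knockout arrays 2 and 3 the untreated difference was −0.18 (adjusted p = 0.478). The named genes that tracked Atat1 most closely were 1700072I22Rik (r 0.815), Dexi (0.815) and Zfp382 (0.799). The second Atat1 probe was detected on 0 of 12 arrays and was not tested.

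**Figure D1:**
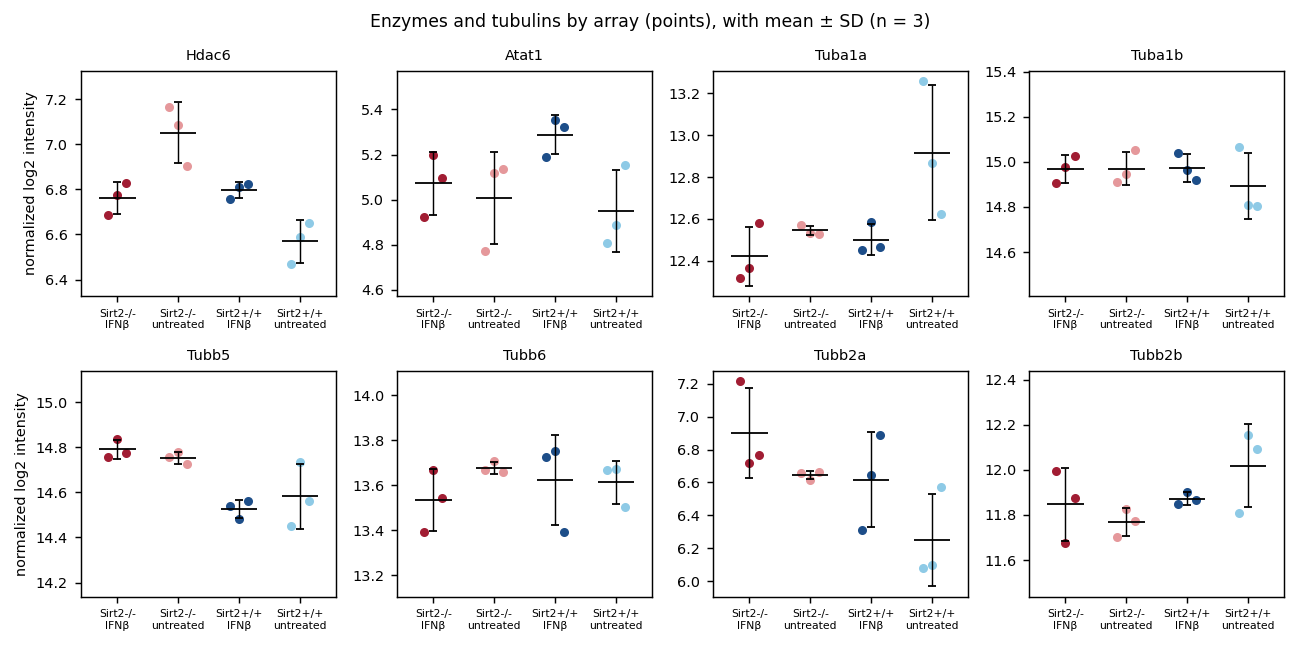
Normalized log2 intensity of the brightest tested probe of Hdac6, Atat1, Tuba1a, Tuba1b, Tubb5, Tubb6, Tubb2a and Tubb2b, 1 point per array, with mean ± SD (n = 3), in treated and untreated Sirt2-/- and Sirt2+/+ fibroblasts. Each panel has its own log2 axis, which does not start at 0; Hdac6 is highest in untreated Sirt2-/- arrays, and Tuba1a in untreated Sirt2+/+ arrays.

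Tuba1a, an alpha-tubulin gene best known from neurons, was lower in untreated knockout than in untreated wild-type fibroblasts. Its brightest probe read 12.57, 12.53 and 12.53 in untreated knockout arrays, against 13.26, 12.87 and 12.62 in untreated wild-type arrays, which did not overlap. The difference was −0.37 ± 0.14 (SE, n = 3 per group, 0.77-fold, limma adjusted p = 0.0427). Its other tested probe read 11.24, 11.93 and 11.54 against 12.14, 12.29 and 11.94, a difference of −0.56 ± 0.19 (adjusted p = 0.0248). This call leans on single arrays: at the brightest probe, leaving out any 1 of 8 arrays ended it (untreated knockout 1, 2 or 3, treated knockout 2, untreated wild type 1 or 2, treated wild type 1 or 3; −0.40 to −0.20, adjusted p 0.0517 to 0.184), and untreated wild-type array 1 moved it most, to −0.20. At the other probe, 4 arrays did so (untreated knockout 1 or 3, untreated wild type 1 or 2; −0.55 to −0.39, adjusted p 0.0587 to 0.112). Without untreated knockout arrays 2 and 3 it was −0.35 at the brightest probe (adjusted p = 0.241) and −0.88 at the other probe (adjusted p = 0.0108).

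IFNβ did not move Tuba1a past the threshold in either genotype. The brightest probe read 12.32, 12.36 and 12.58 in treated knockout arrays (−0.12 against untreated, limma adjusted p = 0.699). It read 12.45, 12.58 and 12.46 in treated wild-type arrays, all below the untreated ones (−0.42 ± 0.14, adjusted p = 0.0735). Under IFNβ the genotypes differed by −0.08 (adjusted p = 0.672).

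Tuba1b, the other abundant alpha-tubulin gene measured, passed no test. Its probe read 14.90, 14.98 and 15.03 in treated knockout arrays and 14.91, 14.95 and 15.05 in untreated knockout arrays, against 15.04, 14.96 and 14.92 in treated wild-type arrays and 15.06, 14.81 and 14.80 in untreated wild-type arrays. The 4 ranges overlapped, and the 4 differences ran from 0.00 to 0.08 on the log2 scale. The probe reached 84.7% to 100% of the brightest probe of its array, so a true difference may be compressed there.

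Tubb5, the main beta-tubulin of many dividing cells, was higher in treated knockout than in treated wild-type fibroblasts. It read 14.76, 14.84 and 14.77 in treated knockout arrays, against 14.54, 14.48 and 14.56 in treated wild-type arrays. These groups did not overlap and differed by 0.26 ± 0.10 (SE, n = 3 per group, 95% interval 0.05 to 0.47, 1.20-fold, limma adjusted p = 0.0400). Untreated, it read 14.76, 14.78 and 14.72 in knockout arrays, against 14.45, 14.73 and 14.56 in wild-type arrays (0.17, adjusted p = 0.166). The call under IFNβ was lost when any 1 of 9 arrays was left out (each array of the treated knockout, untreated knockout and treated wild type; 0.24 to 0.28, adjusted p 0.0516 to 0.104), without both untreated knockout arrays 2 and 3 (adjusted p = 0.0696) and with arrays scaled to their medians (0.19, adjusted p = 0.177). IFNβ changed Tubb5 by 0.04 in the knockout (adjusted p = 0.885) and −0.05 in the wild type (adjusted p = 0.796). A second Tubb5 probe was detected on 1 of 12 arrays and was not tested.

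Tubb6, a beta-tubulin of broad expression, passed no test. Its probe read 13.39, 13.67 and 13.54 in treated knockout arrays and 13.67, 13.71 and 13.66 in untreated knockout arrays, against 13.73, 13.75 and 13.39 in treated wild-type arrays and 13.67, 13.67 and 13.50 in untreated wild-type arrays. The differences within and between the genotypes lay between −0.14 and 0.06. Adjusted p by limma was 0.557 or more in each.

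Tubb2a, a beta-tubulin of the class that neurons use most, was dim here, and passed no test after adjustment. It read 7.21, 6.72 and 6.77 in treated knockout arrays and 6.66, 6.61 and 6.66 in untreated knockout arrays, against 6.31, 6.64 and 6.89 in treated wild-type arrays and 6.08, 6.10 and 6.57 in untreated wild-type arrays. Untreated, the knockout arrays lay above the wild-type arrays by 0.40 ± 0.18 (limma unadjusted p = 0.0416, adjusted p = 0.078).

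Tubb2b, on the same chromosome, was measured by 5 tested probes, numbered from the brightest. Probe 1 read 11.99, 11.67 and 11.88 in treated knockout arrays and 11.70, 11.83 and 11.77 in untreated knockout arrays, against 11.85, 11.90 and 11.87 in treated wild-type arrays and 11.81, 12.15 and 12.09 in untreated wild-type arrays. It passed no test, with an untreated genotype difference of −0.25 (limma adjusted p = 0.0929). Probe 4 read 7.13, 6.73 and 6.97 in untreated knockout arrays, against 7.51, 7.45 and 7.51 in untreated wild-type arrays, a difference of −0.55 ± 0.12 (adjusted p = 0.00146). That call was lost without untreated knockout arrays 2 and 3 (−0.36, adjusted p = 0.0893). Probes 2, 3 and 5 gave −0.06, −0.27 and −0.05, and none passed.

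Probes of 1 gene did not always track each other. Over the 12 arrays, the 10 pairs of Tubb2b probes had Pearson's r from −0.271 to 0.760, and the Tuba1a pair 0.632. Tubulin genes are near copies of each other, probe sequences were not used here, and cross-hybridisation was not tested. Each value is therefore the signal of a probe under the symbol given by the platform annotation.

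Tubb3, the beta-tubulin used to mark neurons, was detected on 1 of 12 arrays, with values between 4.51 and 4.99, and was not tested. The sixth Tubb2b probe was detected on 0 arrays. The fibroblast label was checked beside this: of 10 fibroblast markers, 9 or 10 were detected on all arrays of each group. Their summed linear level was 14883 to 15647 in treated knockout and 16308 to 17736 in untreated knockout arrays, against 27591 to 28019 in treated wild-type and 28825 to 35718 in untreated wild-type arrays. Thy1 and Vim, which are bright, carry that difference in the sum, with Thy1 at means of 10.03 and 10.32 in the treated and untreated knockout, against 13.34 and 13.31 in the treated and untreated wild type. Col3a1 (untreated means 5.99 in knockout and 8.45 in wild type) and Pdgfra (8.50 and 10.57) were also lower in the untreated knockout. Pdgfrb, S100a4, Twist1 and Col1a2 were lower there by less. Untreated, Col1a1 went the other way, with a mean of 11.78 in knockout and 11.36 in wild-type arrays, as did Fn1, with 9.89 and 9.67. Of 10 neuron markers, 7 to 9 were detected on no array of a group, and only Map2 on all arrays of each group. The neuron sum was 902 to 1152 in knockout arrays and 468 to 569 in wild-type arrays. Map2 alone carries that difference, with means of 9.76 and 9.62 in the treated and untreated knockout, against 8.34 and 8.17 in the treated and untreated wild type. The other neuron markers lay near background. The part of these marker levels in the tubulin values was not tested. In bulk RNA, fewer cells of a type and less RNA per cell cannot be told apart.

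**Figure D2:**
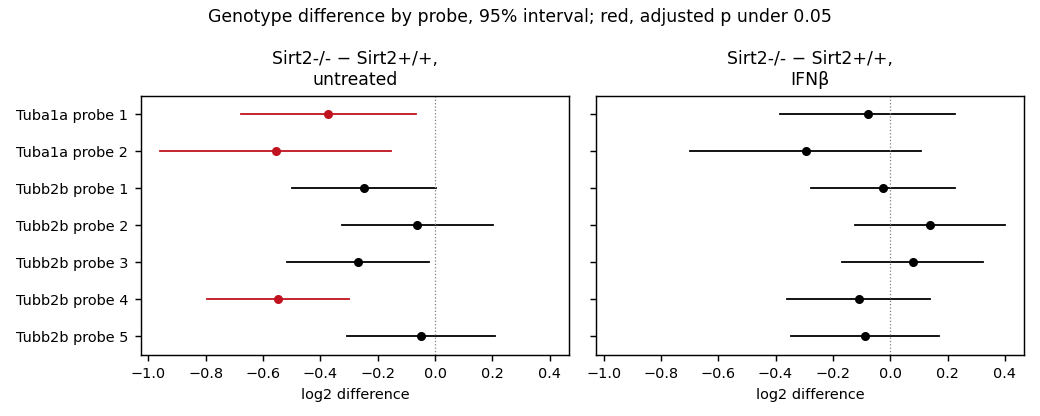
Genotype difference of the 2 tested Tuba1a probes and 5 tested Tubb2b probes, with 95% intervals, untreated and under IFNβ, on a log2 axis; red marks an adjusted p under 0.05. The Tuba1a probes lie at −0.37 and −0.56 untreated, and only Tubb2b probe 4 of 5 was called.

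Across the 8 tested genes, IFNβ called 0 by limma in the wild type, where 12.8% of all genes were called (5.99% higher and 6.79% lower), and 0 in the knockout, where 6.09% were (4.16% higher and 1.93% lower). At an unadjusted p under 0.05 there were 3 in the wild type (Hdac6, Tuba1a and Atat1, the last of which the detection filter favoured), where 25.7% of all genes were, and 1 in the knockout (Hdac6), where 18.6% were. The untreated genotype comparison called 2 of 8 (Hdac6 higher and Tuba1a lower), where 50.3% of all genes were called, 26.5% higher and 23.9% lower. Under IFNβ it called 1 of 8 (Tubb5), where 49.6% were called, 26.7% higher and 22.9% lower. The difference of the responses called 0 by limma, where 0.478% were (0.0989% higher and 0.379% lower), with 1 at an unadjusted p under 0.05 (Hdac6), where 7.21% of all genes were. No test set these shares against those of all genes, and among 8 genes a count of 0 says little where few of all genes were called. Groups did not overlap for 3 of the 8 genes in the wild-type response (30.3% of all genes), 2 in the knockout response (26.5%), 3 in the untreated genotype comparison (58.2%) and 1 under IFNβ (59.1%). The 3 of the wild-type response include Atat1, which the detection filter favoured there. Of the 13 tested probes, 0 were called in the wild-type response (11.9% of all probes), 0 in the knockout response (5.95%), 4 in the untreated genotype comparison (48.9%), 1 under IFNβ (48.3%) and 0 for the difference of the responses (0.404%). The median of the 8 genes was 0.05 in the wild-type response, against −0.06 over all genes, and 0.02 in the knockout response, against −0.05. In the genotype comparison it was 0.07 untreated, against 0.05 over all genes, and −0.03 under IFNβ, against 0.06.

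**Figure D3:**
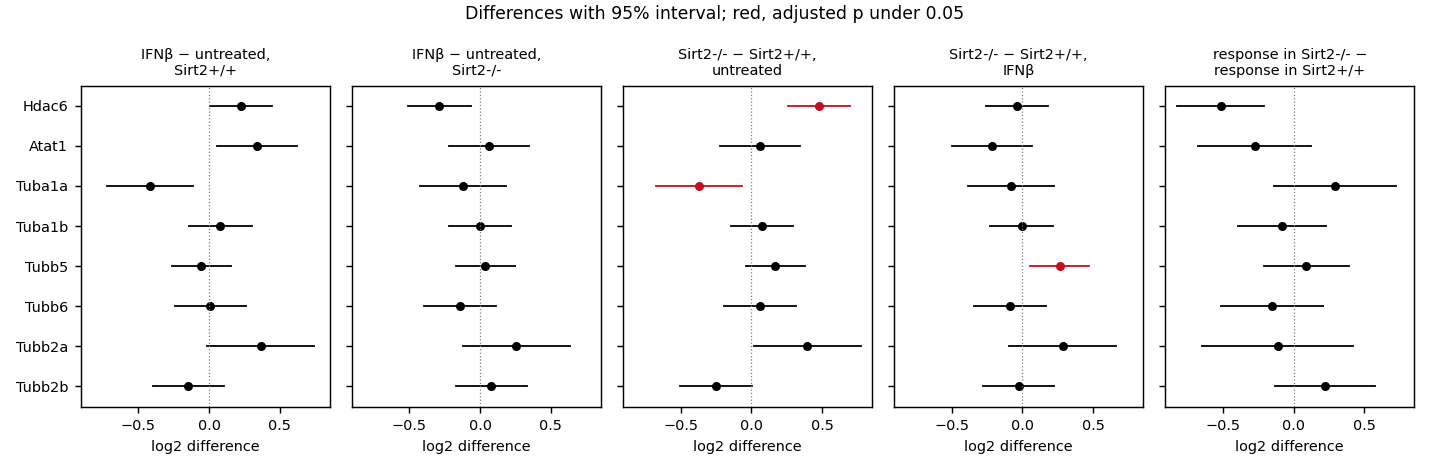
Log2 difference of each of 8 genes, with its 95% interval, in the IFNβ response of each genotype, the genotype comparison without and with IFNβ, and the difference of the responses; red marks an adjusted p under 0.05. The called values are Hdac6 at 0.48 and Tuba1a at −0.37 untreated, and Tubb5 at 0.26 under IFNβ.

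Intervals bound what these arrays can show. In the wild-type response they ran from −0.72 for Tuba1a (0.606-fold) to 0.74 for Tubb2a (1.68-fold). In the knockout response they ran from −0.51 for Hdac6 (0.703-fold) to 0.63 for Tubb2a (1.55-fold). In simulated data, 100 of 17837 probes were changed by 0.5 on the log2 scale and 100 by 1 in the untreated knockout. The untreated genotype comparison called 27% and 86% of them. The real comparison called 48.9% of all probes, so its adjusted threshold was looser, and these shares do not give its sensitivity. The IFNβ responses were not simulated.

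Among 8 other tested tubulin genes, IFNβ called 1 in the wild type (Tuba8), near the 12.8% of all genes. It called 0 in the knockout, where 6.09% of all genes were called. Tuba8, an alpha-tubulin gene whose messages are known from muscle and testis, has 2 tested probes. Probe 1 read 5.02, 5.57 and 5.40 in treated knockout arrays and 5.07, 5.54 and 5.24 in untreated knockout arrays, against 7.80, 7.61 and 7.42 in treated wild-type arrays and 6.25, 6.32 and 5.79 in untreated wild-type arrays. It rose in the wild type by 1.49 ± 0.18 (2.80-fold, limma adjusted p = 7.3e-05) and the knockout difference was 0.05 (adjusted p = 0.922). Probe 1 was detected on 12 of 12 arrays, but its knockout values lie near background, so a small response there may be compressed. The responses differed by −1.44 ± 0.26 (95% interval −1.99 to −0.89, adjusted p = 0.0268), a call that leaving out any 1 of 8 arrays ended (treated knockout 1 or 3, untreated knockout 2 or 3, treated wild type 1 or 2, untreated wild type 1 or 3; −1.51 to −1.28, adjusted p 0.0511 to 0.0956). With no background correction, as with the authors' deposited values, the responses differed by −0.81 (adjusted p = 0.0047) and the wild-type rise was 0.83.

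Probe 2 of Tuba8 averaged 5.06 ± 0.29 in treated and 4.80 ± 0.22 in untreated knockout arrays, against 7.92 ± 0.16 in treated and 6.12 ± 0.20 in untreated wild-type arrays (SD, n = 3 each). It was detected on all wild-type arrays but not on 2 of 3 treated and 1 of 3 untreated knockout arrays, so it was tested through the wild type and its knockout values are near background. The wild-type response was 1.80 ± 0.16 (limma adjusted p = 5.11e-06). The responses at probe 2 differed by −1.53 ± 0.23 (limma adjusted p = 0.00867). Without untreated knockout arrays 2 and 3, which leaves 1 array in that group, the difference of the responses was −1.23 at probe 1 and −1.28 at probe 2. The call was lost at each probe. The summed linear level of skeletal muscle markers was 166 to 213 in knockout arrays and 371 to 563 in wild-type arrays. Acta1 alone carried that difference, and Myod1, Des and Ttn were detected on 0 arrays. Myog, detected on 6 of 12 arrays, did not move with the genotype. Its means were 5.14 and 4.90 in the treated and untreated knockout, against 5.08 and 5.10 in the treated and untreated wild type. The epithelial sum was 149 to 183 in knockout and 584 to 882 in wild-type arrays, carried by Krt18, with Epcam and Krt5 detected on 0 arrays. The part of these in the Tuba8 values was not tested. In GRCm38.p6, Tuba8 lies on chromosome 6 between Pex26 and Usp18, an interferon-induced isopeptidase gene, and its promoter matched none of the 3 motifs.

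**Figure D4:**
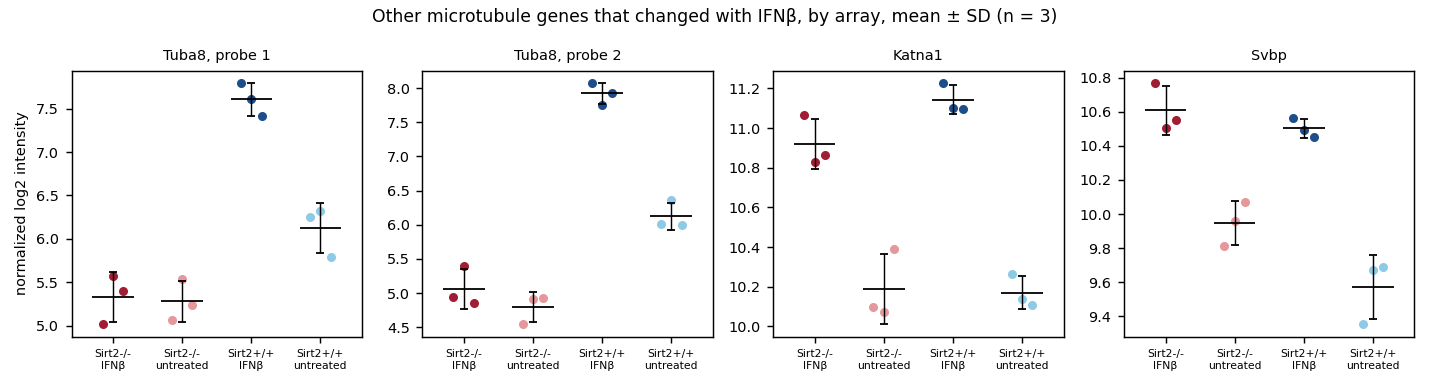
Normalized log2 intensity of both Tuba8 probes, Katna1 and Svbp by array, with mean ± SD (n = 3), in treated and untreated Sirt2-/- and Sirt2+/+ fibroblasts. The treated Sirt2+/+ arrays of Tuba8 probe 1 lie at 7.42 to 7.80 and those of Sirt2-/- at 5.02 to 5.57; Katna1 and Svbp are higher with IFNβ in each genotype.

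Of the microtubule genes in the other lists, Katna1 and Svbp rose with IFNβ in each genotype. Katna1 encodes the katanin catalytic subunit, which severs microtubules; it rose by 0.73 ± 0.11 in the knockout (limma adjusted p = 0.00104) and 0.97 ± 0.11 in the wild type (adjusted p = 5.32e-05). Svbp is a partner of the vasohibins, which remove the C-terminal tyrosine of alpha-tubulin; it rose by 0.66 ± 0.12 in the knockout (adjusted p = 0.00379) and 0.93 ± 0.12 in the wild type (adjusted p = 0.00014). The responses were not shown to differ for either gene (adjusted p = 0.899 and 0.876). Without untreated knockout arrays 2 and 3 the knockout rises were 0.82 for Katna1 (adjusted p = 0.00907) and 0.79 for Svbp (adjusted p = 0.0251). Of the 21 tested microtubule-associated and severing genes, 5 fell in the wild type, where 6.79% of all genes did, and 1 in the knockout (Kif2a), where 1.93% did. Without untreated knockout arrays 2 and 3 fewer of the 21 genes fell in each genotype, and fewer of all genes did too. Kif2a then differed by −0.63 in the knockout and did not pass. Among the 5 were Ckap5 (−0.59, adjusted p = 0.00596), a growth-promoting polymerase, and the depolymerising kinesin Kif2a (−0.54, adjusted p = 0.0112).

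The genotype comparison called genes of these lists at shares to be read against those of all genes, 26.5% higher and 23.9% lower untreated, and 26.7% higher and 22.9% lower under IFNβ. Without untreated knockout arrays 2 and 3, 36.5% of all genes were called in the untreated comparison in either direction, against 50.3% with them. Of 12 other tubulin-modifying enzymes, 3 were higher and 4 lower in the untreated knockout, close to the 50.3% of all genes (median −0.08, against 0.05 over all genes), and 2 and 4 without those arrays. Under IFNβ 3 were higher and 3 lower, close to 49.6% (median 0.11, against 0.06). Ttll5, a tubulin glutamylase, differed by −1.56 untreated (limma adjusted p = 1.77e-07; −1.78 without those arrays) and −1.63 under IFNβ (adjusted p = 1.14e-07). Tpgs1 and Tpgs2, subunits of a tubulin polyglutamylase complex, differed by −0.98 and −0.83 untreated (adjusted p = 0.00149 and 0.0024 without those arrays), and the glutamylase gene Ttll4 by 0.88 (1.12).

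Of the 21 microtubule-associated and severing genes, 7 were higher and 3 lower in the untreated knockout, near the 50.3% of all genes (median 0.18, against 0.05), and 4 and 1 without those arrays. Under IFNβ 10 were higher and 2 lower, where 49.6% of all genes were called (median 0.38, against 0.06). Tacc1, a centrosomal adaptor, differed by 1.46 untreated (1.58 without those arrays) and 1.76 under IFNβ (limma adjusted p = 7.35e-06 and 1.28e-06). Map2, a stabilising protein of dendrites that is also in the neuron marker list, differed by 1.45 untreated (1.41 without those arrays) and 1.42 under IFNβ (adjusted p = 9.1e-07 and 1.03e-06). Of 7 Hdac6 partners and substrates, 1 was higher and 3 lower in each condition (medians −0.01 untreated and 0.00 under IFNβ). Of all genes, 26.5% were higher and 23.9% lower untreated, and 26.7% and 22.9% under IFNβ. Sqstm1, an autophagy receptor, differed by −1.26 untreated (−1.29 without those arrays) and −1.14 under IFNβ. Cttn, a cortical actin-binding substrate, differed by −0.79 and −0.58, and its untreated call was lost without those arrays (−0.65, adjusted p = 0.0816). The dynein heavy chain Dync1h1 differed by −0.74 untreated (−0.57), and Dctn1, its dynactin partner, by 0.78 (0.87).

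Of 13 CCT chaperonin and prefoldin genes, 4 were higher and 1 lower in the untreated knockout, below the 50.3% of all genes (median 0.22, against 0.05 over all genes), and 1 and 1 without untreated knockout arrays 2 and 3. Pfdn2 differed most, by 0.77 (limma adjusted p = 4.67e-05; 0.79 without those arrays). Of 7 folding cofactors, 2 were lower untreated, where 23.9% of all genes were, and 1 without those arrays. Arl2, a regulator of cofactor D, differed by −0.78 (adjusted p = 0.000108; −0.81 without those arrays). Of the 8 other tubulins, 3 were higher and 1 lower under IFNβ, near the 49.6% of all genes. The higher ones were the gamma-, delta- and epsilon-tubulin genes Tubg1 (0.61), Tubd1 (0.58) and Tube1 (0.47).

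**Figure D5:**
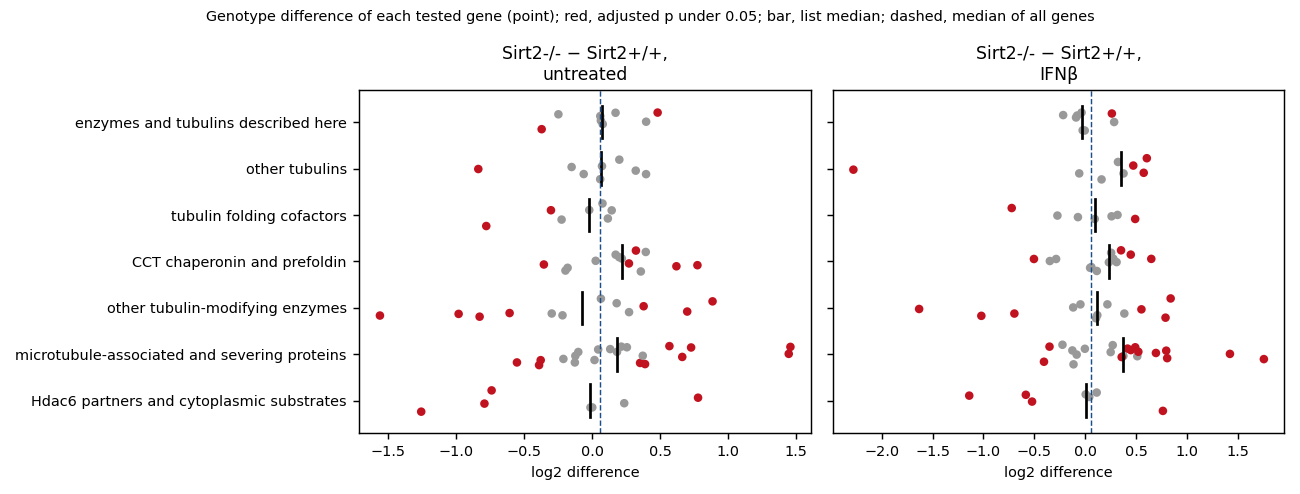
Log2 genotype difference of each tested gene (1 point per gene) in the enzymes and tubulins described here and in 6 other lists of microtubule genes, untreated and under IFNβ; red marks an adjusted p under 0.05, the bar is the list median and the dashed line the median of all genes. The lowest point is Tuba8 at −2.28 under IFNβ and the highest Tacc1 at 1.76.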

How the data were processed

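Single-colour Illumina bead arrays were hybridised with biotin-labelled cRNA, with 150 ng total RNA as input, per the labels' protocols. The authors deposited a linear intensity per probe and array, neither background-subtracted nor scaled, and per the file headers each comes with a detection p-value. The deposited log2 table equals quantile-normalized log2 intensities with no background subtracted. No scanner software is named there.

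Intensities were background-corrected and quantile-normalized with limma's neqc (offset 16, with negative-control levels estimated through the detection p-values; limma 3.58.1, R 4.3.3). A group mean was fitted to the 12 arrays with limma's moderated test, adjusted by the Benjamini-Hochberg method over 17837 probes, with a threshold of 0.05. The 5 contrasts were tested, two-sided. The number of arrays limits the precision. Probes were named from the platform annotation (34885 with 1 symbol, 18 with several, 10378 with none), and 34807 symbols were looked up in RefSeq, with 0 changed.

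The genes and the lists were chosen with earlier results of these data known. All probes of the 10 genes are described, and of each other list the text draws on the 5 genes with the largest called change in each contrast whose groups do not overlap. Alternatives were other normalizations, filters, a replicate block, array weights and leaving out arrays. Promoter sequences are RefSeq's, and the motifs searched in them are textbook consensus letters. A longer form of the interferon motif was searched first, with the same number of matches in each promoter described. Simulated data with known changes were recovered as given in the text.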

Additional observations from a re-analysis of the deposited data

Results flagged for a closer look

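Hdac6 stood out because its groups moved in opposite ways without overlap: the treated knockout arrays all lay below the untreated ones, and the treated wild-type arrays all above. The difference of the responses was −0.516 on the log2 scale, and its own test did not pass (limma adjusted p = 0.233).

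Tuba8, whose knockout values lie near background, stood out because its IFNβ response differed between the genotypes by a test of the difference itself. That difference was −1.44 ± 0.26 on the log2 scale (limma adjusted p = 0.0268). It was −0.81 with no background correction, and the adjusted p ranged from 0.0047 to 0.253 over its alternatives.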

How the results depend on the processing

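The counts are of 8 genes called. In the wild-type response, 0 were called, but 1 (Tuba1a, lower) with no background correction and 1 with the authors' deposited values, and leaving out each array gave 0 to 1. In the knockout response, 0 were called, but 1 (Hdac6, lower, −0.43, adjusted p = 0.0259) with median scaling, where the calls over all genes were 452 higher and 773 lower, against 505 and 234. In the untreated genotype comparison, 2 were called, but 1 (Hdac6) with median scaling, with probes detected on at least 1 array, with no filter, with only the groups of the contrast and without untreated knockout arrays 2 and 3, and leaving out each array gave 1 to 3. Under IFNβ, 1 was called (Tubb5), but 0 with median scaling, with probes detected on at least 1 array, with only the groups of the contrast and without untreated knockout arrays 2 and 3, and leaving out each array gave 0 to 1. The difference of the responses gave 0 throughout. No value called in the results reversed its sign. Of 305 called single values recomputed, 50 lost the call. Hdac6 untreated kept its call in 22 of 22 alternatives, between 0.26 and 0.60.

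The replicate numbers share no stated origin. Of 18 same-numbered pairs, 4 deviated together with r above 0.1 (range −0.105 to 0.164), and 8 of 12 arrays correlated best with their own number. With the replicate number as a block, the untreated genotype comparison called 1 gene (Hdac6, adjusted p = 0.00345) and the comparison under IFNβ 0, with Tuba1a at an adjusted p of 0.0561 and Tubb5 at 0.0520.

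Bright probes limit the tubulins and dim probes limit Atat1, Tubb2a, Tubb3 and the knockout values of Tuba8: Tuba1b reached 84.7% of its array's brightest probe or more.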
